A study of Rattus norvegicus with 24 samples.

Results

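Sprr1a, Gap43, Ecel1, Basp1, Stmn2 and Stmn4 were followed as axon growth effector genes in single dorsal root ganglion (DRG) neurons of the rat. The 6 genes were given by name, with earlier results of these data known, and all were found among the 32881 genes shared by the count files. Their UMIs (unique molecular identifiers, 1 per captured RNA molecule) were read in 1433 of 1464 cells, the others having fewer than 500 genes, fewer than 1000 UMIs or mitochondrial transcripts at 5% or more. Male Sprague-Dawley (SD) rats underwent spared nerve crush (SNC), in which the tibial and common peroneal branches of the left sciatic nerve were crushed while the sural branch was spared. L4 and L5 neurons carrying dyes injected into the nerve branches before surgery were picked by mouth pipette from 4 sham samples (named Xin, 4, 10 and 18; 215 cells), 4 samples at 1 day (238 cells), 3 at 3 days (237 cells) and 5 at 7 days after SNC (240 cells). A sham sample of this set came from a rat with an exposed, uncrushed nerve and injected branches, so every one of these 930 neurons, control or crushed, came from a dye-injected nerve. Each SNC sample mixed neurons of crushed with neurons of uncrushed branches, and cell names did not show which was which. A further 7 libraries (S1 to S7; 503 cells), here called added sham, are labelled as sham at day 0 (3 libraries), day 1 (2), day 3 (1) and day 7 (1); their labels give neither dyes nor branches. The labels do not say whether each sample was a separate rat, so p-values measure the spread between samples, which may be partly technical.

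Growing axons extend by adding membrane and by rebuilding the cytoskeleton at the growth cone. Gap43 and Basp1 encode abundant acidic proteins bound to the inner face of the growth cone membrane, where they act on the actin cortex. Stmn2 and Stmn4 encode stathmins, which bind tubulin and regulate microtubule turnover. Sprr1a encodes a small proline-rich protein best known from the cornified envelope of skin, and is classically switched on in sensory neurons by axotomy, where it promotes neurite outgrowth. Ecel1 encodes a membrane endopeptidase of the M13 (neprilysin) family that marks injured neurons and takes part in nerve terminal branching. Peripheral sensory neurons keep a growth programme that nerve injury raises, and these genes are standard readouts of it.

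The 250 bases upstream of the transcription start were at hand for 3 of the 6 genes, Sprr1a, Ecel1 and Basp1, from RefSeq on build GRCr8. The motif of AP-1, the dimer that Jun and Atf3 can form, was searched as TGAGTCA and TGACTCA, which are each other's reverse complement, so both strands were covered and no match overlapped another motif. The Sprr1a and Ecel1 windows are shown because both genes were far higher in the dye-injected than in the added sham neurons (below) while their windows differed in this motif. Bases are given 5′ to 3′ on the gene's strand, with AP-1 matches in capitals.
Sprr1a, minus strand of chr2:180752626-180752875: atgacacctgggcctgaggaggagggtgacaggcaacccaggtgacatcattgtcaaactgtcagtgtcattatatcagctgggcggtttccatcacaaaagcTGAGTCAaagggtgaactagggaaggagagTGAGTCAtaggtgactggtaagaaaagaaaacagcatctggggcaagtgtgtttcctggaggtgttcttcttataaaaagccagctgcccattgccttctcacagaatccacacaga
Ecel1, minus strand of chr9:95274573-95274822: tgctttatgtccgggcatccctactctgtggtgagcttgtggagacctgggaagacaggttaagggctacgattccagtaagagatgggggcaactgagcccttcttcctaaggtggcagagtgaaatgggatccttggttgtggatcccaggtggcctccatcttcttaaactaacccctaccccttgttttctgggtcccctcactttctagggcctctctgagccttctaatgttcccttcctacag
Sprr1a held 2 matches, starting 147 and 117 bases upstream. Ecel1 and Basp1 (chr2:77594298-77594547, minus strand) held none in this window. Of 33469 windows of the same length, 4.05% held at least 1 match and 39 (0.117%) held at least 2. These letters are a description of the window, not evidence of binding.

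Summed UMIs per sample ran from 4002503 (sham Xin) to 28975829 in the 16 dye-injected samples and from 14004136 to 40732975 in the 7 added libraries. Levels below are CPM, the UMIs of a gene per 1000000 UMIs of all cells of a sample. Because counts were taken at the 3′ end of transcripts, they are compared across samples and not between genes. Summed CPM of 9 neuron markers lay between 7159 and 9542 in the dye-injected samples and between 5965 and 6843 in the added libraries. For 8 glia markers, none of which was at 0 in any sample, the ranges overlapped, at 1427 to 2448 in dye-injected sham and 840 to 2035 in added sham; for 6 immune markers they were 8.00 to 35.2 and 4.71 to 17.1, and for 4 measured fibroblast and vessel markers 1.45 to 11.8 and 3.22 to 36.5. The vessel marker Cldn5 was at 0 in all 23 samples, and the immune markers Ptprc, Cd68 or C1qa in some. The part of these cells in the results was not tested. Replicate samples differed beyond sampling noise in all 46 pairs compared, so none was a library deposited again.

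The 6 genes differed most between the sham sets. All 6 were higher in the dye-injected sham neurons than in the added sham neurons by edgeR's quasi-likelihood test with Benjamini-Hochberg adjustment over all genes, against a background of 40.6% of 15791 genes called (16.5% higher and 24.2% lower). Both sets are labelled sham, but dye injection, picking by dye and library set go together and cannot be told apart. The median log2 fold change of all genes tested was -0.15.

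Sprr1a went from clear expression to near absence. In dye-injected sham it stood at 282 CPM in Xin, 65.3 in sample 4, 167 in sample 10 and 93.8 in sample 18. In added sham it was at 0 in 6 of 7 libraries, where a count of 0 allows up to 0.0737 to 0.214 CPM, and at 0.223 CPM in S7. All 6 of its UMIs there, out of 202613681, came from 1 of 503 cells (0.199%; exact 95% interval 0.00503 to 1.10%), whereas 159 of 215 dye-injected sham cells (74.0%; 67.5 to 79.7%) had at least 1 UMI. The mean level was 5141 times that of the pooled added libraries, with an interval of 2362 to 14009 that covers counting error of the 6 UMIs only (edgeR adjusted p = 9.67e-07; exact permutation p = 0.00606, two-sided, the smallest that 4 against 7 samples can give).

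Ecel1 and Stmn4 were the next largest. Ecel1, the endopeptidase, stood at 225, 63.3, 108 and 99.0 CPM in sham Xin, 4, 10 and 18. In S1 to S7 it was at 0.286, 0, 5.99, 1.56, 16.1, 9.84 and 9.49 CPM. No added library came within reach of the lowest dye-injected sample, and the log2 fold change was 4.48 ± 0.88 (SE; edgeR adjusted p = 0.00166).

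Stmn4, the neuron-restricted stathmin, gave 515, 283, 326 and 225 CPM in the same 4 sham samples. In S1 to S7 its levels were 20.6, 15.5, 35.1, 57.2, 39.5, 30.7 and 43.9 CPM. The groups did not overlap, and the log2 fold change was 3.42 ± 0.32 (SE; edgeR adjusted p = 4.86e-05).

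Gap43, Stmn2 and Basp1 were found in nearly every neuron of both sets and differed by less. Gap43 averaged 1584 ± 318 CPM (SD, n = 4) in dye-injected sham, with Xin highest at 2044 and sample 18 lowest at 1369, against 626 ± 110 (SD, n = 7) in added sham, where S2 was highest at 731 and S4 lowest at 413. Its log2 fold change was 1.47 ± 0.17 (SE; edgeR adjusted p = 8.15e-05).

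Stmn2 averaged 2439 ± 224 CPM (SD, n = 4) against 1646 ± 57.6 (SD, n = 7), a log2 fold change of 0.69 ± 0.10 (SE; edgeR adjusted p = 0.000256). Its groups did not overlap either, since the lowest dye-injected sample was at 2267 and the highest added library at 1722 CPM. Among the genes followed, only Basp1 had groups that overlapped. The share of all genes whose groups do not overlap was not counted, so the lack of overlap is not read as particular to these genes. Basp1 gave 349, 363, 389 and 285 CPM in sham Xin, 4, 10 and 18, while S2 reached 297 CPM above sample 18 and S7 fell to 143. The log2 fold change was 0.77 ± 0.20 (SE; edgeR adjusted p = 0.00848), the exact permutation p was 0.0121 (two-sided, 4 against 7), and against the 3 day-0 libraries alone the call was lost (log2 fold change 0.67, edgeR adjusted p = 0.0888; 24.2% of 14106 genes called, 8.34% higher). The exact permutation p was 0.00606 for each of the other 5 genes, among 30 such tests over genes and comparisons.

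**Figure D1:**
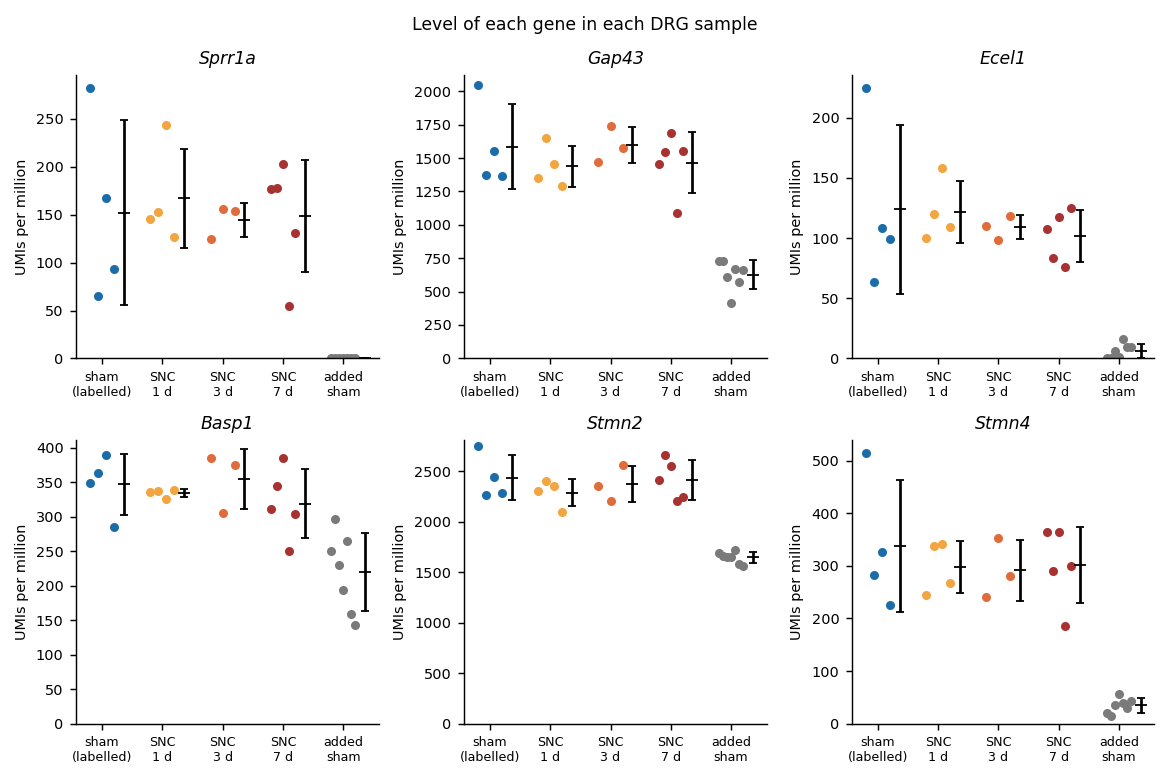
Level of each gene (CPM of the summed cells, y axis) in every sample (points) of the 5 groups (x axis), with the group mean and SD; the plots mark the dye-injected set as labelled. In all 6 panels the 4 dye-injected groups share a range and the 7 added sham libraries lie lower, at 0 to 0.223 CPM for Sprr1a, with overlap only for Basp1.

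The difference between sham sets was then read within neuron types, rebuilt by clustering each set apart and named from marker lists, with the 6 genes kept out of the clustering. NF-like neurons (large, neurofilament-rich mechanoreceptors) had all 6 genes called higher, where 33.1% of 12698 genes were called (13.4% higher). Their Gap43 averaged 1084 ± 361 CPM (SD, n = 3 samples with at least 3 such cells) in dye-injected sham and 213 ± 13.2 (SD, n = 5) in added sham, a log2 fold change of 2.41 (edgeR adjusted p = 0.000139). The Ecel1 level was 48.3 ± 35.2 against 0.598 ± 0.258 CPM (log2 fold change 6.39, edgeR adjusted p = 0.000185). The class was not made of the same clusters in both sets. In dye-injected sham it joined 23 cells of a cluster led by Shox2 with 18 of a cluster led by S100a16, whereas the added class was 1 cluster led by Shox2. In dye-injected sham, Ecel1 averaged 5.83 ± 5.43 CPM (SD, n = 3) in the Shox2-led and 83.0 ± 55.3 (SD, n = 3) in the S100a16-led cells, so the S100a16-led cells held most of the class level. In the added set S100a16 was among the leading genes of an unnamed cluster led by Kcng1, where Ecel1 averaged 16.2 ± 12.1 CPM (SD, n = 6). Gap43 was 927 ± 568 CPM (SD, n = 3) in the Shox2-led sham cells, from 272 to 1288, above the 213 ± 13.2 of the added class in each sample; these cluster values carry no test.

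In SST-like neurons (somatostatin and natriuretic peptide expressing itch neurons), Stmn4 averaged 366 ± 130 CPM (SD, n = 3) against 1.80 ± 1.61 (SD, n = 6), with a log2 fold change of 7.55 (edgeR adjusted p = 7.08e-10). The dye-injected class again joined 2 clusters, with Stmn4 at 569 ± 26.5 CPM (SD, n = 3) in the sham cells led by Ifitm1 and at 134 ± 0.587 (SD, n = 2) in those led by Sst, both above the added class, which was 1 cluster led by Ifitm1, Nppb and Sst. Sprr1a, Gap43 and Ecel1 were also called higher there, where 31.8% of 9153 genes were called (13.2% higher), while Basp1 (0.56, edgeR adjusted p = 0.0634) and Stmn2 (0.35, edgeR adjusted p = 0.141) were not. In NP-like neurons (non-peptidergic nociceptors) Stmn4 (4.45) and Gap43 (0.87) were called higher, where 38.1% of 10949 genes were called (15% higher), and Basp1 (0.38, edgeR adjusted p = 0.191) and Stmn2 (0.38, edgeR adjusted p = 0.0672) were not; Sprr1a and Ecel1 had too few counts to be tested. Here too the clusters differed, since the dye-injected class was led by Chrna3, Mrgprb4 and Il7r and the added class by Slc16a12, Iapp and Crh, while Mrgprb4, Rbp2 and Casr were among the leading genes of an added cluster without a name. In dye-injected sham NP-like cells Stmn4 averaged 74.3 ± 39.1 CPM (SD, n = 3), against 3.68 ± 5.70 (SD, n = 7) in the added NP-like cells and 27.3 ± 17.4 (SD, n = 6) in that unnamed cluster. Gap43 gave 1100 ± 65.4, 607 ± 72.3 and 709 ± 57.0 CPM in the same order. The size of the NP-like differences thus depends on which added cluster is set beside the dye-injected class. Whether the differences varied between types was not tested.

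Related genes, from lists fixed with earlier results of these data known, are given by their counts. Of all 15791 genes tested, 16.5% were called higher and 24.2% lower in this comparison. All 4 members of the stathmin family were called higher in dye-injected sham, Stmn4 most (median log2 fold change 1.00); besides the 2 followed here they are Stmn3 (0.76) and Stmn1 (1.23), which also bind tubulin. Of 4 GAP43-like cortical proteins 3 were higher, including Marcksl1, a substrate of protein kinase C (3.37), and Marcks was not called. In the list of growth cone and axon cytoskeleton, 11 of 20 genes were higher and 4 lower (median 0.75), with the neuronal tubulins Tubb3 (1.10) and Tuba1a (0.99) and the actin-severing cofilin Cfl1 (0.90) among the higher and the collapsin response mediator Dpysl4 (fell by 1.99 on the log2 scale) among the lower.

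Of 22 tested injury-induced genes 14 were higher and none was lower (edgeR, median 1.64), where 16.5% of all genes were called higher. An unadjusted edgeR p under 0.05 was found for 16 of the 22. Adjustment only raises p, so at least the 40.6% of all genes that were called had such a p. Csrp3, a muscle LIM protein, was 241 ± 108 CPM (SD, n = 4) against 0.748 CPM, range 0.201 to 1.44, in added sham (log2 fold change 8.49). The neuropeptide galanin, Gal, averaged 1198 ± 785 CPM against 7.36 ± 6.94 (7.49). The growth arrest genes Cdkn1a (3.12) and Gadd45a (2.25) were higher as well. The transcription factor Atf3, named after its value was seen because its motif was searched above, averaged 580 ± 258 CPM (SD, n = 4) in dye-injected and 154 ± 47.2 (SD, n = 7) in added sham (log2 fold change 2.06 ± 0.28, edgeR adjusted p = 0.000175).

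Among 6 M13 peptidases Ecel1 was the only one called (edgeR, median log2 fold change -0.12), where 40.6% of all genes were called. Of the 6, 5 had an unadjusted edgeR p under 0.05, against at least 40.6% of all genes. Of the cornified envelope list, Tgm1, a transglutaminase that crosslinks that envelope, was called (6.19) beside Sprr1a, Tgm2 was not, and Sprr1b, Sprr3, Ivl and Lor were too low to test. Of the other cell types' markers, 1 of 8 glia genes (Pmp22, 0.63), 2 of 5 immune genes (Cd74, 3.53, and Ptprc, which fell by 3.27 on the log2 scale) and 0 of 3 fibroblast genes were called by edgeR, where the latter had 2 genes with an unadjusted p under 0.05.

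**Figure D2:**
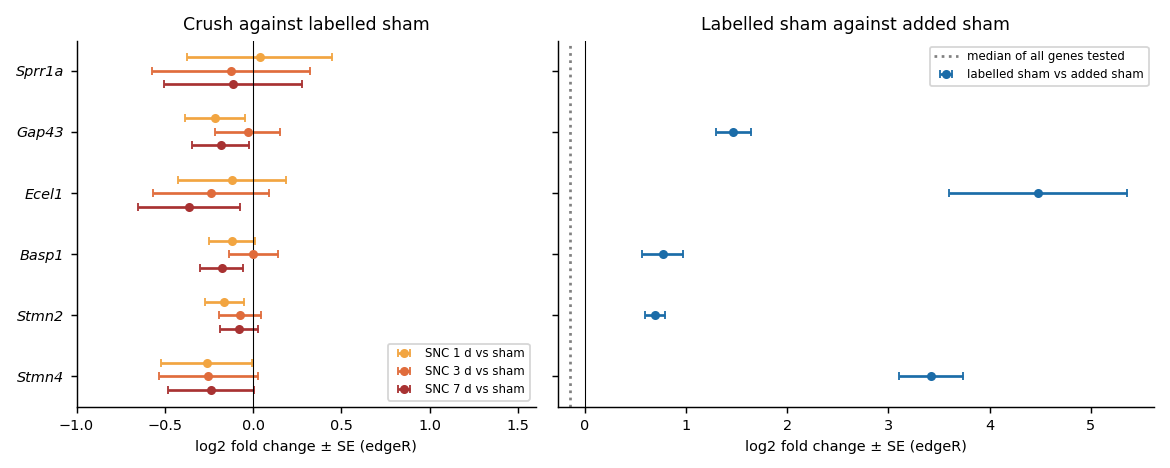
Log2 fold changes with SE (x axis) of the genes (y axis) for the 3 SNC comparisons with dye-injected sham and for dye-injected against added sham, with Sprr1a left out of the last panel because its added sham level rests on 6 UMIs and a dotted line at the median of all genes. The SNC values lie within -0.36 to 0.04 and none was called, while those between sham sets run from 0.69 to 4.48.

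The time course asked whether the genes changed in dye-injected neurons after SNC. None of the 6 was called at any time, and the edgeR test called 0 of 14239 genes (0%) at 1 day, 0% at 3 days, 0% at 7 days and 0% for any difference among the 4 groups. Over all genes, 1243, 594, 476 and 738 had an unadjusted p under 0.05 in these 4 tests, and DESeq2 called 17, 1, 0 and 37; the 6 genes were in neither count.

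Sprr1a overlapped its sham range (65.3 to 282 CPM) at every time. It stood at 145, 153, 243 and 127 CPM in the 1 day samples 13, 16, 17-1 and 17-2. The 3 day samples 14, 15 and 17-3 gave 124, 156 and 153 CPM, and the 7 day samples S, 8, 9, 19-1 and 19-2 gave 177, 178, 203, 54.9 and 131. Relative to sham, the log2 fold change of Sprr1a was 0.04 ± 0.41, -0.13 ± 0.45 and -0.11 ± 0.39 (SE) at 1, 3 and 7 days (edgeR adjusted p = 0.985, 0.995 and 1.00). At least 1 Sprr1a UMI was found in 74.0% of sham cells (exact 95% interval 67.5 to 79.7%), 85.7% at 1 day (80.6 to 89.9%), 87.8% at 3 days (82.9 to 91.7%) and 90.4% at 7 days (86.0 to 93.8%), and the median cell stood at 19.0, 70.1, 70.9 and 136 CPM. Cells of 1 sample are not replicates, and the samples overlapped, at 58.3 to 95.8% in sham, 83.0 to 100% at 1 day, 82.1 to 95.8% at 3 days and 79.2 to 95.8% at 7 days. With every cell thinned to 20000 UMIs, which left out 11, 10, 14 and 9 shallower cells, the mean share per sample was 54.8 ± 26.7%, 65.1 ± 12.1%, 59.5 ± 6.28% and 69.4 ± 13.4% (SD, n = 4, 4, 3 and 5). No thinned share passed a test against sham (exact permutation p = 0.600, 0.857 and 0.286, two-sided), and in added sham 0 of 493 thinned cells had a Sprr1a UMI, which allows a share of up to 0.609%.

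With standard errors of this size and adjustment over 14239 genes, even a Sprr1a change larger than the spread of the sham samples could go uncalled. The smallest change that would be called was not computed.

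Gap43, the growth cone phosphoprotein, had narrower errors. Its group means were 1584 ± 318 (n = 4), 1437 ± 156 (n = 4), 1595 ± 134 (n = 3) and 1466 ± 226 CPM (SD, n = 5) in sham and at 1, 3 and 7 days. The log2 fold changes were -0.22 ± 0.17, -0.03 ± 0.18 and -0.18 ± 0.16 (SE).

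Stmn2 was the steadiest, at 2439 ± 224 (n = 4), 2290 ± 132 (n = 4), 2374 ± 176 (n = 3) and 2414 ± 198 CPM (SD, n = 5), with log2 fold changes of -0.16 ± 0.11, -0.07 ± 0.12 and -0.08 ± 0.11 (SE). Basp1 moved by -0.12 ± 0.13, 0.00 ± 0.14 and -0.18 ± 0.12, Stmn4 by -0.26 ± 0.26, -0.25 ± 0.28 and -0.24 ± 0.24, and Ecel1 by -0.12 ± 0.30, -0.24 ± 0.33 and -0.36 ± 0.29 on the log2 scale. All 18 exact permutation tests gave p of 0.371 or more (two-sided); with 3 against 4 samples such a test cannot go below 0.0571.

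The sign of several of these values came from 1 sample. Sham Xin, the library with the fewest UMIs and 24 cells, was the highest of all 16 dye-injected samples for 5 of the 6 genes (all but Basp1). Without it the Sprr1a values were 0.59, 0.43 and 0.44 at 1, 3 and 7 days and those of Ecel1 0.40, 0.28 and 0.16, still uncalled (edgeR). Per the study's sample table, a pair of sham samples shared a reverse transcription date with a 7 day sample each, sample 4 with 8 and sample 10 with 9. From sham to 7 days, Sprr1a went from 65.3 to 178 and from 167 to 203 CPM in these pairs, Gap43 from 1373 to 1549 and from 1551 to 1687, and Ecel1 from 63.3 to 83.1 and from 108 to 118. Stmn2 (2267 to 2665 and 2447 to 2550) and Stmn4 (283 to 291 and 326 to 364) were higher at 7 days in both pairs as well, and Basp1 was lower (363 to 345 and 389 to 384). The 2 pairs are too few for a test to pass the threshold. For the 5 genes that were higher, the pairs had the opposite sign to the 7 day fit over all samples given above. The pairs are plain CPM, whereas that fit also normalized the samples (TMM). In mean log2(CPM + 1) over all samples, Sprr1a at 7 days differed from sham by 0.06, the sign of its pairs. Gap43, Ecel1, Stmn2 and Stmn4 differed by -0.11, -0.15, -0.01 and -0.13, still opposite to theirs. The share of all genes higher in both pairs was not counted, and the 6 genes vary together between cells. With the date as a block in limma, Sprr1a stood at 0.29 ± 0.37 (SE; adjusted p = 1.00) and none of the 6 genes was called.

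The gene lists gave 0 calls in all 3 SNC comparisons and in the test over the 4 groups (edgeR), against 0% of all genes. The 22 injury-induced genes tested had medians of -0.02, -0.13 and -0.15 on the log2 scale, and 2, 1 and 0 had an unadjusted p under 0.05. The stathmin family stood at -0.20, -0.12 and -0.18 and the cytoskeleton list at -0.12, -0.05 and -0.15. The summed level of the 8 glia markers ran from 1394 to 2323 CPM at 1 day, 1288 to 1613 at 3 days and 1113 to 1727 at 7 days. Their median log2 fold changes were -0.02, -1.23 and -1.16, and 0, 3 and 4 of the 8 had an unadjusted p under 0.05 (edgeR), none of them called. Sparc and Apoe, 2 genes that also led the cluster with high glia markers, stood at -1.99 ± 0.64 and -1.86 ± 0.63 (SE) at 7 days (unadjusted p = 0.00658 and 0.00900; edgeR adjusted p = 1.00 for both). The 9 neuron markers had medians of -0.26, -0.17 and -0.16, with 4, 0 and 2 under an unadjusted p of 0.05 and none called. Fitted without the cluster with high glia markers, none of the 6 genes was called either.

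Across neuron types the genes differed in how widely they were spread. The 930 dye-injected neurons fell into 10 clusters; cluster means are taken over the samples that gave 3 or more such cells, and are descriptions without a test, since the clusters were made from these cells. Sprr1a ranged over 29-fold and Ecel1 over 31.3-fold between the highest and lowest cluster, Stmn4 over 5.66-fold, Gap43 over 2.26-fold, and Basp1 and Stmn2 over 1.512-fold and 1.504-fold.

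The PEP1-like and PEP2-like clusters were named from the study's marker lists for galanin-expressing peptidergic nociceptors. The study lists Sprr1a itself as a marker of both, chosen on these samples, so its high level there is no separate result. Sprr1a was highest in the PEP2-like (321 ± 167 CPM, SD, n = 16) and PEP1-like neurons (263 ± 99.0, n = 16), and in the SST-like cluster led by Ifitm1 (213 ± 104, n = 12). Cold-like neurons (133 ± 118, n = 5), NF-like neurons led by S100a16 (129 ± 86.6, n = 15), an unnamed cluster led by Apoe with high glia markers (124 ± 134, n = 7) and NF-like neurons led by Shox2 (91.5 ± 56.9, n = 12) followed. It was lowest in NP-like (26.3 ± 46.7, n = 8), PEP3-like (19.2 ± 40.6, n = 11) and the SST-like cluster led by Sst (11.1 ± 13.3, n = 8). Only the step from the Shox2-led NF-like to the NP-like neurons exceeded the larger SD of the neighbours; the other 8 neighbouring pairs did not differ beyond their spread. The unnamed cluster has neuron and glia transcripts together, and leaving it out changed no call for the 6 genes.

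Ecel1 had another order. It was highest in PEP1-like neurons (263 ± 58.0 CPM, SD, n = 16), followed by the unnamed cluster (199 ± 114, n = 7), the Ifitm1-led SST-like (180 ± 52.7, n = 12), PEP2-like (152 ± 79.9, n = 16) and PEP3-like neurons (124 ± 38.8, n = 11). After the one step larger than the SD came the S100a16-led NF-like (68.4 ± 45.5, n = 15), cold-like (37.3 ± 36.4, n = 5), Sst-led SST-like (33.4 ± 24.3, n = 8), NP-like (12.3 ± 9.58, n = 8) and Shox2-led NF-like neurons (8.39 ± 6.74, n = 12). PEP3-like neurons thus held Ecel1 with little Sprr1a, and Shox2-led NF-like neurons Sprr1a with little Ecel1.

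Stmn4 followed Sprr1a at the top, with 528 ± 109 CPM in PEP2-like (SD, n = 16), 493 ± 99.8 in PEP1-like (n = 16) and 475 ± 84.0 in Ifitm1-led SST-like neurons (n = 12), and was lowest in NP-like neurons (93.3 ± 56.3, n = 8). The remaining means were 431 (cold-like), 292 (unnamed), 248 and 190 (NF-like led by S100a16 and by Shox2), 154 (PEP3-like) and 120 CPM (Sst-led SST-like), and no neighbouring pair was apart by more than the larger SD. The membrane protein Gap43 ran from 2151 ± 225 CPM in PEP2-like (SD, n = 16) through 2086 (PEP1-like), 2003 (cold-like) and 1937 (Ifitm1-led SST-like) to 1145 (Sst-led SST-like), 1128 (NP-like) and 953 ± 364 in Shox2-led NF-like neurons (n = 12). Between them lay the unnamed cluster (1604), PEP3-like (1387) and S100a16-led NF-like neurons (1373); the step below the last of these, of 228 CPM, was the one that exceeded the SD.

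Basp1 (269 to 407 CPM) and Stmn2 (1908 to 2869 CPM) were nearly even over the 10 clusters, both highest in PEP1-like and lowest in Sst-led SST-like neurons, with no neighbours apart by more than the SD.

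**Figure D3:**
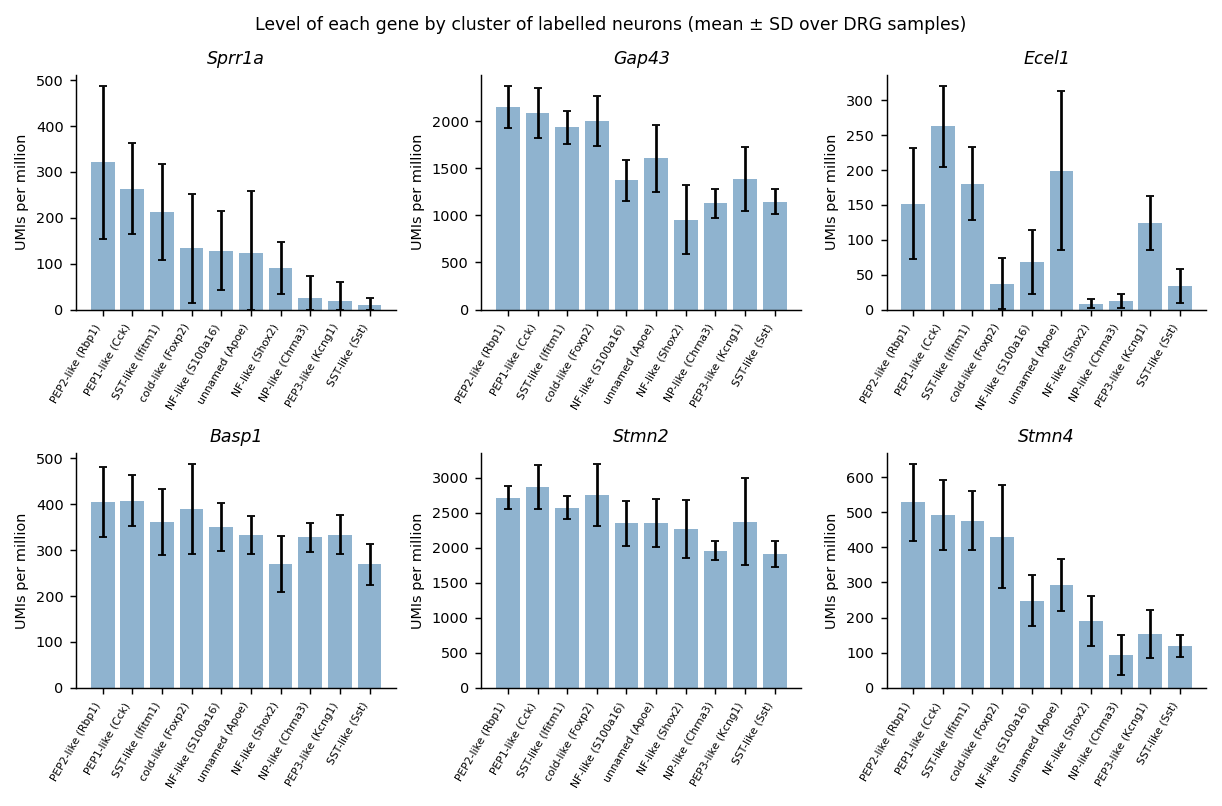
Mean level of each gene (CPM; bars are means over samples with at least 3 cells, lines the SD, drawn no lower than 0) in the 10 clusters of dye-injected neurons, each named with its leading gene. Sprr1a and Ecel1 span 29-fold and 31.3-fold between clusters and differ in their order, whereas Basp1 and Stmn2 span 1.512-fold and 1.504-fold.

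In the added sham neurons, with 7 clusters, the picture was another. Sprr1a was at 0 in 6 clusters. Ecel1 averaged 16.2 ± 12.1 CPM (SD, n = 6) in an unnamed cluster led by Kcng1 and 1.32 or less in the rest. Stmn4 was at 73.5 ± 12.5 CPM (SD, n = 5) in NF-like neurons and 59.1 ± 26.3 (n = 6) in the Kcng1-led cluster, but at 3.68 ± 5.70 (n = 7) in NP-like and 1.80 ± 1.61 (n = 6) in SST-like neurons. Gap43 was lowest in NF-like neurons (213 ± 13.2 CPM, n = 5) and between 463 and 944 CPM elsewhere.

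By type and time, Sprr1a in NP-like neurons had its sham samples apart from the SNC samples. Sham samples 4, 10 and 18 gave 1.24, 1.88 and 4.42 CPM, on 2, 2 and 11 UMIs, over 19 cells. The 1 day samples 13, 16 and 17-1 gave 14.2, 141 and 17.0 CPM over 21 cells, and the 3 day samples 14 and 15 gave 21.2 and 10.3. All 5 SNC samples lay above the 3 sham samples, a separation named after looking over the genes, types and times. How many other genes separate these samples was not counted. Sample 16 held 283 of the 332 UMIs at 1 day. The log2 fold change was 4.48 ± 0.91 (SE) at 1 day (unadjusted p = 0.000309, edgeR adjusted p = 1.00 over 10395 genes, 0% called) and 2.48 ± 0.96 at 3 days (unadjusted p = 0.0235, edgeR adjusted p = 1.00), so neither was called.

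At least 1 Sprr1a UMI was found in 8 of 19 NP-like sham cells and 20 of 21 NP-like cells at 1 day; with cells thinned to 20000 UMIs these became 0 of 18, which allows a share of up to 16.7%, and 10 of 21. With a coarser clustering (resolution 0.3) the 68 NP-like cells were joined with the 184 PEP2-like cells, which hold the most Sprr1a, in 1 class that kept the name NP-like. The mean over all groups then went from 26.3 to 194 CPM, so these values rest on the finer clusters.

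PEP3-like neurons gave a similar shape through 1 sample. Sham samples 4, 10 and 18 stood at 0, 7.61 and 6.01 CPM, and the 1 day samples 13, 16 and 17-2 at 7.35, 141 and 3.72; the groups overlapped, and the log2 fold change of 3.18 ± 1.02 (SE) was not called (edgeR adjusted p = 0.999). In PEP1-like neurons Sprr1a was 239 ± 74.0, 298 ± 110, 377 ± 69.7 and 186 ± 46.6 CPM (SD; n = 4, 4, 3 and 5) in sham and at 1, 3 and 7 days, and in PEP2-like neurons 376 ± 261, 432 ± 106, 227 ± 44.4 and 245 ± 121. NF-like neurons stood at 85.8 ± 76.8, 82.6 ± 13.1, 85.7 ± 22.7 and 158 ± 67.8 (n = 3, 4, 3 and 5). In these types each SNC group overlapped sham. Between SNC groups, the 3 day samples lay above the 7 day ones in PEP1-like neurons (303 to 442 against 111 to 227 CPM). In PEP2-like neurons the 1 day samples (354 to 585) lay above the 3 day ones (189 to 276). Both separations were named after looking over the types and times. How many other genes separate the same samples was not counted. None of the changes from sham was called. SNC groups were not compared pairwise, and whether the change differed between types was not tested.

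**Figure D4:**
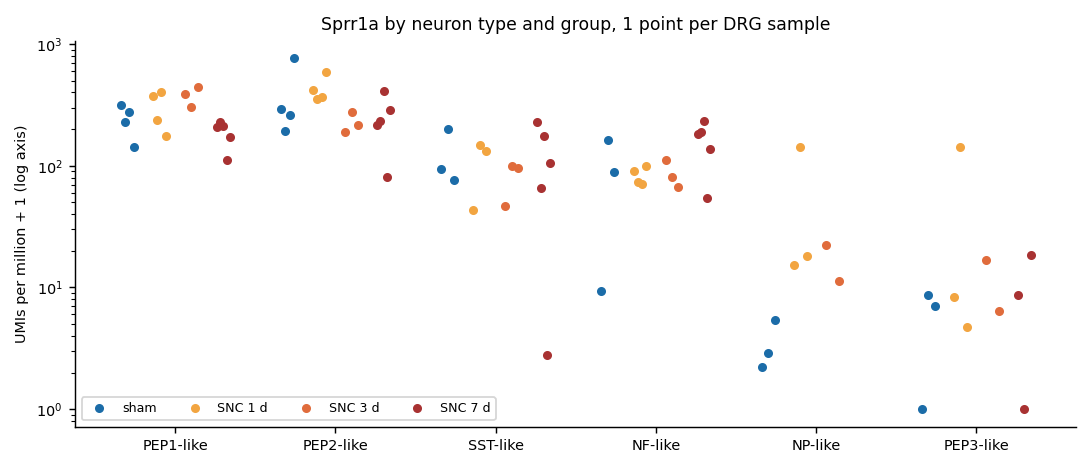
Sprr1a level (CPM + 1, log axis) per sample (points) in 6 neuron types of the dye-injected set, coloured by group. NP-like sham samples lie at 1.24 to 4.42 CPM below all SNC samples of that type, while each SNC group overlaps sham in the PEP1-like and PEP2-like neurons.

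A pair of 7 day samples bore on direct injury, with 1 sample on each side and so no test; intervals are exact Poisson 95% intervals of the counts and cover counting error only. Sample 19-1 was labelled as 4 indirectly and 20 directly injured cells, and 19-2 as 20 and 4. The study's text gives both dyes for the crushed branches in different places, so which sample held mostly directly injured cells rests on this label alone. Sprr1a was 54.9 CPM (50.3 to 59.8) in 19-1 and 131 (124 to 138) in 19-2. Gap43 was 1091 (1070 to 1112) and 1551 (1526 to 1576), and Stmn4 186 (178 to 195) and 301 (290 to 312).

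Ecel1 stood at 75.7 (70.3 to 81.5) and 125 (118 to 132) CPM, and Basp1 at 250 (240 to 261) and 303 (292 to 315). Stmn2 was closest, at 2201 (2172 to 2232) and 2242 (2212 to 2272). By these summed CPM, sample 19-1, labelled as mostly directly injured, was the lower one for all 6 genes. It was the lowest of the 16 dye-injected samples for 4 of them (Sprr1a, Gap43, Basp1 and Stmn4). Cell medians, with 19-1 first, were higher in 19-1 for Ecel1 (78.8 and 70.8 CPM), Basp1 (297 and 282) and Stmn2 (2480 and 2372). They were lower in 19-1 for Sprr1a (13.7 and 142), Stmn4 (236.5 and 305.5) and, narrowly, Gap43 (1659 and 1668). The share of all genes lower in 19-1 was not counted. Sample 19-1 also held 10 NF-like cells of 24 against 3 of 24 in 19-2, and the part of that mix was not tested.

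Between cells of a sample the genes fell into pairs. Correlations are Spearman's over cells of 1 sample, given as the median over 16 dye-injected samples; cells of a sample share its library, and no p is given. Gap43 and Stmn2 went together most closely (0.85, range 0.54 to 0.94), Sprr1a and Stmn4 next (0.65, 0.31 to 0.80), then Gap43 and Stmn4 (0.50, 0.20 to 0.81) and Ecel1 and Stmn4 (0.47, 0.26 to 0.69). The other 11 pairs had medians from 0.16 to 0.34.

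Depth and type bore on these values. Gap43 and Stmn2 both fell with a cell's total UMIs (medians of -0.83 and -0.85), whereas Sprr1a did not (0.00). When every cell was thinned to 20000 UMIs the medians were 0.73 for Gap43 with Stmn2 and 0.58 for Sprr1a with Stmn4. Thinning makes counts per cell equal but keeps each cell's shares, so it does not remove the fall with total UMIs. After ranks were centred within clusters, Gap43 with Stmn2 stayed at 0.81, Sprr1a with Stmn4 at 0.41 and above 0 in 16 of 16 samples, and Ecel1 with Stmn4 at 0.24, while Gap43 with Stmn4 went to 0.04.

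**Figure D5:**
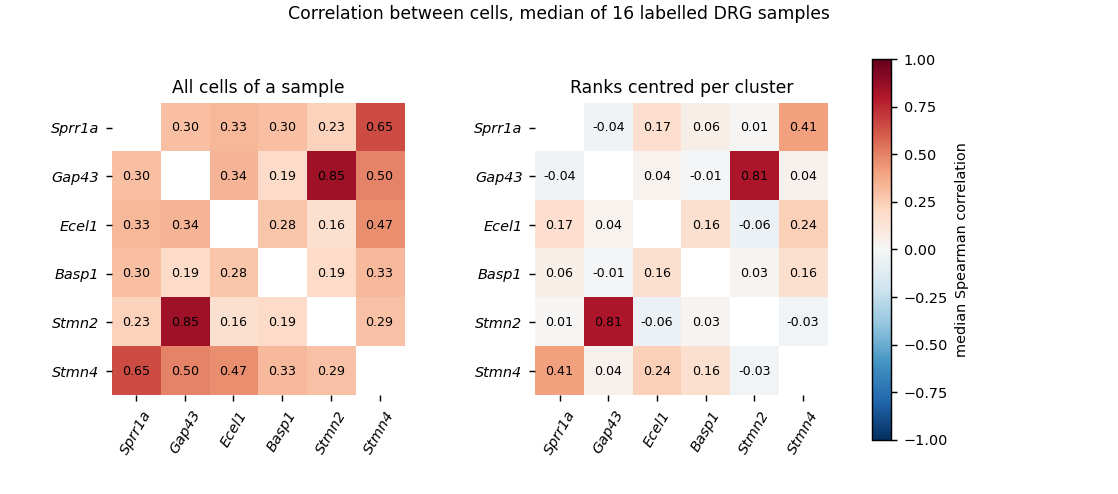
Median over the 16 dye-injected samples of the within-sample Spearman correlation between cells, for each pair of genes, with all cells of a sample (left) and with ranks centred within clusters (right); colour runs from -1 to 1. Gap43 with Stmn2 is strong in both panels, at 0.85 and 0.81, Sprr1a with Stmn4 stands at 0.65 and 0.41, and Gap43 with Stmn4 goes from 0.50 to 0.04.

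In the 7 added libraries Gap43 and Stmn2 had a median of 0.66 (0.31 to 0.72). The pair of Gap43 and Stmn4, by contrast, stood at -0.06 (-0.14 to 0.03) there, outside the range of the dye-injected samples. With ranks centred within clusters this contrast was gone. The pair then stood at 0.04 (-0.12 to 0.44) in the dye-injected samples and 0.01 (-0.25 to 0.23) in the added libraries. Pairs with Sprr1a could not be formed there.

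The genes most like each member between cells, out of 10927 with a UMI in at least 25% of dye-injected cells, split the same way. For Gap43 they were the tubulin genes Tubb3 (median 0.90), Tubb5 (0.88) and Tuba1a (0.88), and for Stmn2 Tubb3 (0.90), Tuba1a (0.85) and Gap43 itself. For Sprr1a they were Kif22, a kinesin (0.70), Cmtm3, a MARVEL-domain membrane protein (0.70), and Cnga4, a cyclic nucleotide-gated channel subunit (0.67).

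Stmn4 had Kif22 (0.74), Gadd45a, a stress-induced growth arrest gene (0.69), and Gal (0.69) nearest. In the added libraries the same pairs with Stmn4 stood at 0.27, 0.09 and 0.07. Ecel1 was most like Gfra3, the artemin receptor subunit (0.55), Timp1, a metalloproteinase inhibitor (0.54), and Il4r, an interleukin receptor (0.54). Basp1 had the weakest neighbours, Eid1 (0.50), Ptprn, a dense-core vesicle protein (0.42), and Cyfip2, a regulator of actin assembly (0.41).

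Within the added sham set, the 4 libraries of days 1 to 7 were compared with the 3 of day 0. None of the 5 genes that could be tested was called, against 0% of 16175 genes by edgeR (1503 with an unadjusted p under 0.05; 195 called by DESeq2, none of them among the 6). Library S7 decided this count. It is labelled day 0, but for Ecel1 (9.49 CPM) and Stmn4 (43.9 CPM) it lay among the later libraries and away from S1 (0.286 and 20.6) and S2 (0 and 15.5).

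Without S7, 1992 of 16742 genes (11.9%; 7.83% higher) were called by edgeR, and among them Ecel1 (log2 fold change 5.83 ± 1.27 SE, adjusted p = 0.0211) and Stmn4 (1.13 ± 0.31 SE, adjusted p = 0.0476) were higher on days 1 to 7; Gap43 (-0.41, adjusted p = 0.159), Basp1 (-0.40, adjusted p = 0.234) and Stmn2 (-0.07, adjusted p = 0.756) were not called. Without S7, day 0 rests on S1 and S2 alone. These had the lowest summed glia markers of the 7 libraries (840 and 869 CPM) and fewer than 3 NF-like cells each. In added sham, Stmn4 was highest in NF-like and Ecel1 in Kcng1-led neurons. Day, neuron mix and library therefore cannot be told apart here. Sprr1a stayed at 0 UMIs in all 4 libraries of days 1 to 7.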

How the data were processed

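Cells were read by a modified Smart-seq2 with cell barcode and UMI at the 3′ end. The deposited values are UMI counts per gene and cell, made by the authors with STAR (Rnor_6.0), featureCounts, Samtools and UMI_tools, with no normalization. The 2 libraries of DRG sample S were summed. Tables and plots were made in Python 3.11.15 (SciPy 1.17.1, pandas 2.3.3, NumPy 2.4.6, matplotlib 3.10.9). R 4.3.3 (Matrix 1.6.5) ran the models.

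Counts were summed per sample and tested with edgeR 4.0.16 (quasi-likelihood, TMM, filterByExpr, Benjamini-Hochberg, called at 0.05), the 4 dye-injected groups in 1 fit. Exact permutation tests used log2(CPM + 1). Neurons were clustered with Seurat 5.3.0 (2000 variable genes without the 6 genes, 40 components, resolution 0.5); a name needed at least 3 markers, and no doublet caller was run because cells had been hand-picked. Alternatives were DESeq2 1.42.0, its size factors, no filter, thinned cells, mean CPM per cell with limma 3.58.1, year or date (as a block) of reverse transcription, each sample left out, single types and other clusterings. After seeing the data, day-0 libraries alone, leaving out the cluster with glia markers, shares of cells after thinning and pairs within a reverse transcription date were added.

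The 6 genes and all lists were chosen with earlier results of these data known; type markers for PEP neurons came from the study, which chose them on these samples. Named besides the 6 are the 3 genes nearest each, and up to 4 called genes a list (or 2 of the lowest p). On simulated counts for SNC 7 days against sham (14018 genes), 78 of 99 4-fold and 42 of 98 2-fold changes were recovered, with 1 false call among 121. For the sham sets (15417 genes), 64 of 96 and 22 of 96 were recovered, with 3 false calls among 89. One gene that this rule would name is not reported here.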

Additional observations from a re-analysis of the deposited data

Results flagged for a closer look

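Sprr1a in added sham library S7 stood apart from the other 6 libraries, at 0.223 CPM where all others were at 0. The value is 6 UMIs in 1 cell. Of 24 groups of samples checked in this way for a single value far from the rest, this was the one found, and chance alone gives about 1 in 20. With the other 6 libraries at 0, any UMI in S7 was bound to be flagged. That rate does not apply to it, and the flag is not read as a result.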

How the results depend on the processing

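Counts of called genes moved with the settings while the 6 genes' own calls after SNC did not: none was called in any alternative fit (NP-like neurons alone could not be fitted at 7 days). For SNC 1 day, DESeq2 called 17 genes, a term for the reverse transcription year 1 and PEP1-like neurons alone 1, and leaving out each sample gave 0 to 1. For 3 days, DESeq2, no filter, thinned cells, mean CPM with limma, the year term and PEP1-like neurons each gave 1, and leave-one-out fits 0 to 1. For any difference, DESeq2 gave 37, no filter 2, and thinned cells, the year term and PEP1-like neurons 1 each. Between sham sets, 4202 genes were called in NF-like, 4174 in NP-like and 2910 in SST-like neurons alone, 3410 against day 0 alone, and 5051 to 6403 on leaving out each sample. Calls split into 2599 higher and 3816 lower, and into 1935 and 4658 by mean CPM with limma. For added days 1 to 7, DESeq2 gave 195, thinned cells 1 and leave-one-out fits 0 to 1992, the highest without S7. Signs changed in 87 of 760 alternative values of the 6 genes, 0 of them called; in 3 both values were at least 1 SE from 0, all at 1 day: Stmn2 (0.16) and Stmn4 (0.82) in NP-like neurons alone and Stmn4 (0.57) in PEP3-like neurons alone. The cause was not tested. No paired analysis by replicate number was possible because the labels number no replicates across groups. With the reverse transcription date as a block (limma, correlation 0.123), 0 genes were called in each SNC comparison. Within the 2 dates shared by a sham and a 7 day sample, 5 of the 6 genes were higher at 7 days. The share over all genes was not counted. CPM are shares of a cell's RNA, and types were named separately in each set.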
